A study of Rattus norvegicus with 4 samples.

Results

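The genes described here are 10 rat genes of the response to warming and cooling, taken by name: the cold-inducible RNA-binding protein genes Cirbp and Rbm3, the small heat shock protein genes Cryab and Hspb1, the HSP70 and HSP110 genes Hspa8, Hspa4l and Hsph1, the J protein genes Dnajb1 and Dnajb4, and the mitochondrial chaperonin gene Hspd1. All probe sets that the platform annotation gives to any of them were used, 14 of the 31099 on the array. Of these, 13 belong to 1 gene alone and cover 9 of the 10 genes, 6 of them with 1 probe set and 3 with several. The only probe set for Hspa8 is also annotated to Haus8l2, so its values cannot be given to either gene and it stays out of the counts. All 9 genes passed the floor on dim genes, a log2 value that reaches 6 on any array, as did 8801 of 14217 genes in all. Each of their probe sets was brighter than every bacterial control on all 4 arrays.

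ROE2 is an immortalized oral epithelial line. It was derived from the tongue of a fetus of a transgenic Wistar strain. All of its cells carry a temperature-sensitive SV40 large T antigen, which drives proliferation at the lower temperature and loses function on warming. The cells were kept at 33 °C for 24 h and then at 37 °C for 0, 3, 6 or 9 days, all in medium with 2% serum and 10 ng/ml EGF on collagen, and day 0 is the control. Each day has 1 array, so there are no replicates, no tests and no errors beside the values, and "higher" and "lower" describe these 4 arrays. Temperature, loss of large T function and time in culture shift together between day 0 and the later days and cannot be told apart, nor can the day and the array. A lower value of a gene in fewer cells and a lower value in each cell cannot be told apart either.

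Warming acts on cells through unfolded proteins. Heat shock factor HSF1 is set free when chaperones are occupied, and it binds heat shock elements, alternating repeats of a short unit upstream of chaperone genes, which it switches on within minutes to hours. The chaperones work as a chain: small heat shock proteins hold unfolded clients, J proteins hand clients to HSP70, HSP110 proteins exchange the nucleotide of HSP70, and chaperonins fold clients in a closed chamber. CIRBP and RBM3 answer the opposite stimulus. They are small glycine-rich RNA-binding proteins that mammalian cells make in greater amounts when cooled slightly below body temperature, and they affect translation and the choice of polyadenylation sites.

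The sequences around transcript starts are shown because heat shock elements and a mild-cold octamer have been described upstream of genes of these kinds. RefSeq promoter windows on build GRCr8, each 300 bases long with 250 before and 50 after a transcript start, were found for 8 of the 10 genes, all but Cryab and Dnajb4. Both strands were searched for pairs of heat shock units, GAANNTTC or TTCNNGAA, which read the same on both strands, for 3 alternating units in register, which contain both pairs and so overlap them, and for TCCCCGCC, an octamer described upstream of mouse Cirbp as a mild-cold response element. A pair of units was present in 6 of the 8 windows, against 15.9% of all 33469 windows, 3 units in 3 of them, against 0.798%, and the octamer in 1, that of Cirbp, against 4.79%. A match is a run of letters and not a measured binding site. Distances are counted from the transcript start of the window. For Cirbp and Hspd1 that start, at 10189475 and 64084037, lies inside the annotated gene. On their minus strand these genes begin at 10189623 and 64084332, so the distances printed for them are not from the gene ends. The stretches below run 5′ to 3′ on the strand of the gene, with the matches in capitals.
Cirbp, chr7:10189688-10189725, minus strand, the octamer 235 to 228 bases before the start: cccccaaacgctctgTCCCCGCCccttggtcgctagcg
Hspb1, chr12:26432388-26432445, minus strand, pairs 129 to 122 and 109 to 102 bases before the start: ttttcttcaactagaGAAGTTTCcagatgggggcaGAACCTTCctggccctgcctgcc
Hspa4l, chr2:125668369-125668395, plus strand, a pair 38 to 45 bases after the start: ggtgacttggtatagTTCCTGAAatgt
Hsph1, chr12:10427248-10427359, plus strand, a pair 105 to 98 and 3 units 36 to 24 bases before the start: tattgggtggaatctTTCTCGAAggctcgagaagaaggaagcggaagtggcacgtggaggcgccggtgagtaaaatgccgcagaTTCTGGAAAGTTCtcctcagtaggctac
Dnajb1, chr19:41431102-41431167, minus strand, pairs 11 to 4 bases before and 17 to 24 bases after the start: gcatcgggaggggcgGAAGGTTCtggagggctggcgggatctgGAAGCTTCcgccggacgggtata
Hspd1, chr9:64084247-64084287, minus strand, overlapping runs of 3 units 242 to 225 bases before the start: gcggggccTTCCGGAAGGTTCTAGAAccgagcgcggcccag

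The Hspd1 element lies at chr9:64084262-64084279, inside the span annotated to Hspd1 (64073610 to 64084332) and upstream of Hspe1 (64084327 to 64087415), the gene of its cochaperonin, which runs the other way. The same bases therefore appear in the Hspe1 window, 65 to 48 bases before its start. The Hspa8 window held 3 units in 2 places, 213 to 201 and 55 to 43 bases before the start. The Rbm3 window held none of the motifs.

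Between the later days and day 0 the 9 genes went different ways. Cryab was 6.43-fold to 7.62-fold higher on all 3 later days, and Hspa4l was 4.61-fold higher on day 3 and less so on each later array. In the brightest probe set of each, Cirbp and Dnajb4 were about as much lower as each other, 2.58-fold and 2.37-fold on day 9. The other Cirbp probe sets were 4.55-fold and 4.91-fold lower on that day. Hspb1 was moderately higher and Rbm3 moderately lower. Hspd1 was at -0.32, -0.56 and -0.44 on the log2 scale, and Hsph1 and Dnajb1 differed from day 0 by at most 0.51.

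By a rule of 2-fold or more between 2 arrays, on day 3 against day 0 Cryab and Hspa4l were higher, 2 of 9 genes (22.2%) against 4.31% of all genes, and Cirbp was lower, 1 of 9 (11.1%) against 2.15%. On day 6 the same genes and Dnajb4 met the rule, so 2 of 9 were higher (5.74% of all genes) and 2 lower (8.08%). On day 9, Cryab alone was higher (5.57% of all genes), and Cirbp and Dnajb4 were lower (6.25%). The genes called with the rule are few and their shares rest on single genes. Dnajb4 stood just outside the threshold on day 3, at -0.996, and Cirbp just inside it, at -1.08. With arrays centred on the median level of the housekeeping list, Cirbp no longer met the rule on days 3 and 6, at -0.73 and -0.97, nor Dnajb4 on days 6 and 9, at -0.98 and -0.99, and Hspb1 did on days 3 and 6, at 1.11 and 1.24. Between consecutive later arrays 0 of 9 genes met the rule. The share of all genes was also small there, 0.829% higher and 1.60% lower on day 6 against day 3, and 0.250% higher and 0.591% lower on day 9 against day 6.

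The median difference of the 9 genes from day 0 was -0.13, -0.15 and -0.07 on days 3, 6 and 9, beside -0.05, -0.18 and -0.14 for all 8801 genes. On each of these days 4 of the 9 were above day 0 and 5 below. The genes were thus split between both directions and are described by role below. These comparisons share the day 0 array.

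**Figure D1:**
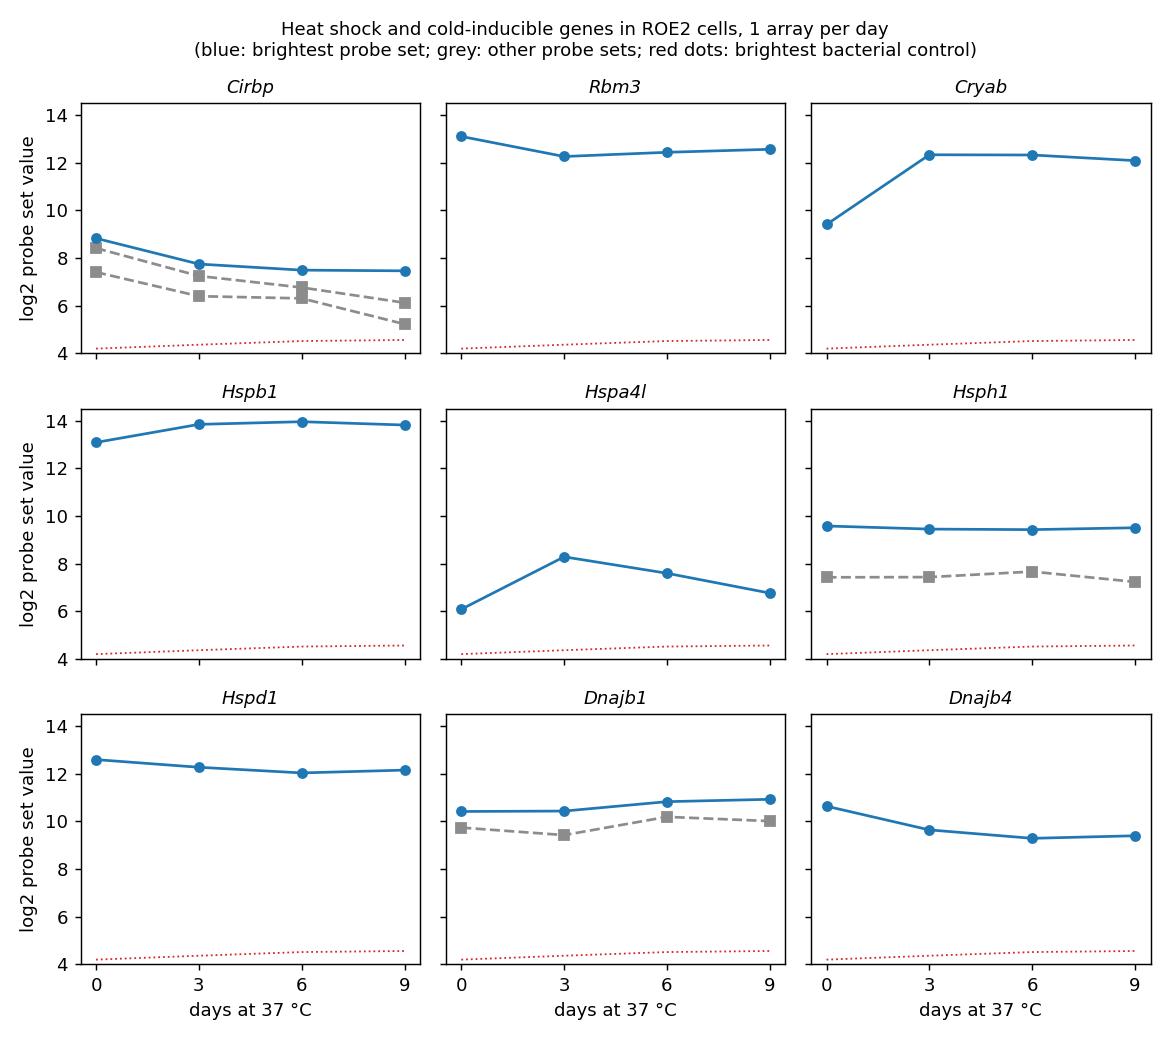
Log2 probe set values (y axis) against days at 37 °C (x axis), 1 panel per gene and 1 array per day. Blue circles are the brightest probe set of the gene, grey squares its other probe sets, and the red dotted line the brightest bacterial control. Cryab stands near 12 on days 3, 6 and 9 against 9.41 on day 0, and all 3 Cirbp probe sets are below their day 0 value on every later day. Levels of different probe sets are not comparable with each other.

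**Figure D2:**
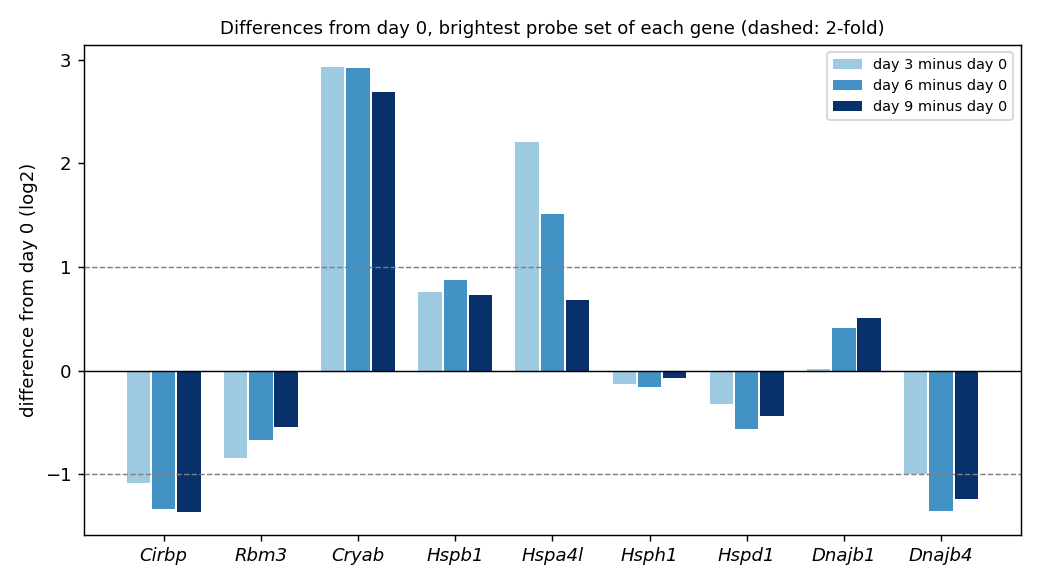
Difference from day 0 on the log2 scale (y axis) for the brightest probe set of each of the 9 genes (x axis), with bars for days 3, 6 and 9 and dashed lines at 2-fold. Cryab and Hspa4l pass the upper line, Cirbp and Dnajb4 the lower one, and the Hspa4l bars stand at 2.20, 1.51 and 0.68 on days 3, 6 and 9.

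The cold-inducible genes were both lower at 37 °C. Cirbp (chromosome 7, 10184515 to 10189623, GRCr8) read 8.83, 7.75, 7.49 and 7.46 on the log2 scale on days 0, 3, 6 and 9 in its brightest probe set. Day 0 was the highest of the 4 arrays and the later arrays lay close together. The differences from day 0 were -1.08, -1.34 and -1.37, which is 2.12-fold, 2.53-fold and 2.58-fold lower. On day 3 Cirbp had the 146th lowest difference of 8801 genes (1.66%), and on day 9 the 212th lowest (2.41%).

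All 3 Cirbp probe sets were at least 2-fold lower on each later day, but they parted late. The second read 8.42, 7.25, 6.76 and 6.12 on days 0, 3, 6 and 9, and the third 7.41, 6.40, 6.30 and 5.22. On day 3 their differences from day 0 lay between -1.17 and -1.01, a spread of 0.16. By day 9 the spread was 0.93, since these 2 sets stood at -2.30 and -2.18 and the brightest at -1.37. Between day 9 and day 6 the brightest set differed by only -0.03, and the others by -0.64 and -1.08. For genes with several probe sets, the median spread on day 9 against day 0 was 0.44. Whether Cirbp was lower still on day 9 than on day 6 therefore depends on the probe set. On the deposited scale, the fold on day 9 lies between 2.58 and 4.91 over the 3 probe sets. Other centrings put the brightest set between -2.00 and -1.11 on day 9.

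Rbm3 (chromosome X, 17020863 to 17024341), the closest relative of Cirbp among the cold-inducible genes, read 13.11, 12.27, 12.44 and 12.57 on days 0, 3, 6 and 9. The lowest array was day 3 and the values stepped up after it without reaching that of day 0. The differences were -0.84, -0.67 and -0.54, or 1.79-fold, 1.59-fold and 1.45-fold lower. Rbm3 thus missed the 2-fold rule on every day. On day 3 it was the 317th lowest of 8801 genes (3.60%), and on day 9 it stood among the lowest 22.1%. Cirbp and Rbm3 were both below day 0 on all later arrays, and after day 3 the Cirbp probe sets were level or lower while Rbm3 was slightly higher.

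**Figure D3:**
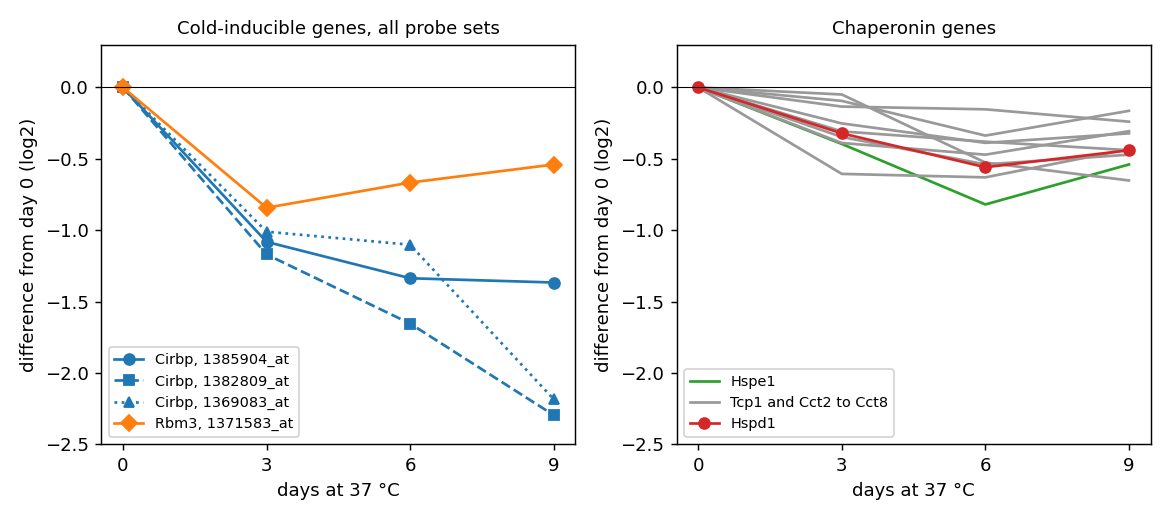
Difference from day 0 on the log2 scale (y axes) against days at 37 °C (x axes), 1 array per day. The left panel shows the 3 Cirbp probe sets in blue and Rbm3 in orange, and the right panel Hspd1 in red, Hspe1 in green and the 8 genes of the cytosolic chaperonin in grey. Cirbp probe sets reach -1.37, -2.18 and -2.30 on day 9, while Rbm3 is at -0.54 after -0.84 on day 3. Every chaperonin line lies below 0 on the deposited scale. On no later day does this hold for every gene under every centring.

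Among the small heat shock proteins, Cryab (chromosome 8, 59989885 to 59995532) encodes alpha-B-crystallin, a holdase of lens, muscle and stressed epithelia. It read 9.41, 12.34, 12.33 and 12.10 on days 0, 3, 6 and 9. The 3 later arrays lay between 12.10 and 12.34, far above day 0. The differences were 2.93, 2.92 and 2.68, or 7.62-fold, 7.57-fold and 6.43-fold higher. They were the 19th, 25th and 36th highest of 8801 genes on days 3, 6 and 9. The span of the neighbouring small heat shock gene Hspb2 overlaps that of Cryab in RefSeq, and the Hspb2 probe set stayed under the brightest bacterial control on all 4 arrays, at 2.90, 3.28, 3.32 and 3.38.

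Hspb1 (chromosome 12, 26430640 to 26432301), which encodes HSP27, a small heat shock protein that also binds actin and is abundant in keratinocytes, read 13.09, 13.85, 13.96 and 13.82. It was higher on all 3 later arrays, by 0.76, 0.87 and 0.73, or 1.69-fold, 1.83-fold and 1.66-fold, and missed the 2-fold rule. On days 3, 6 and 9 it stood among the highest 6.84%, 7.41% and 9.08% of genes. The brightest value of any probe set was 14.11 on day 0 and 14.09, 14.22 and 14.23 on the later arrays. Hspb1 was thus near the top of the scale on days 3 to 9, where a further difference would be hard to see.

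The other small heat shock list had 8 genes, 7 with a probe set of their own and 3 above the floor. Hspb8, whose product works with the cochaperone BAG3 in clearing misfolded proteins by autophagy, read 9.97, 11.00, 11.04 and 10.53. It was 1.02 and 1.06 higher on days 3 and 6 and 0.55 on day 9, and another probe set gave 1.08, 1.94 and 0.78. The other 2, Hspb7 and Hspb6, differed by 0.10 and -0.57 on day 9. Bag3, itself a classical HSF1 target, read 10.63, 10.33, 10.53 and 10.45. On the deposited scale it was not above day 0 on any later array, by margins of only -0.09 and -0.17 on days 6 and 9.

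In the HSP110 family, whose members release ADP from HSP70, the 3 genes differed. Hspa4l (chromosome 2, 125668346 to 125726404) read 6.08, 8.28, 7.59 and 6.76 on days 0, 3, 6 and 9. It was highest on day 3 and lower on each array after it, so that day 9 was closer to day 0 than to day 3. The differences from day 0 were 2.20, 1.51 and 0.68, or 4.61-fold, 2.86-fold and 1.60-fold higher. It was the 50th highest of 8801 genes on day 3 and the 880th on day 9. On day 9 against day 6 it was 0.83 lower, the 89th lowest difference (1.01%).

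Hsph1 (chromosome 12, 10427368 to 10446602), the heat-inducible HSP105, read 9.58, 9.45, 9.43 and 9.50 in its brighter probe set and 7.42, 7.43, 7.66 and 7.23 in the other. The brighter set differed from day 0 by -0.13, -0.15 and -0.07 and the other by 0.01, 0.24 and -0.19. The signs of the probe sets were opposite on days 3 and 6. Hspa4, the constitutive family member, was 0.31, 0.33 and 0.21 higher. No direction can be given for Hsph1, whose window holds 3 heat shock units close to the start.

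Of HSP70 itself, the probe set annotated to both Haus8l2 and Hspa8, the gene of the constitutive cytosolic HSC70, read 13.65, 13.58, 13.57 and 13.60. The 4 arrays spanned 0.084, near the top of the scale. The probe set annotated to both Hspa1b and Hspa1a, the strongly heat-inducible pair, read 9.53, 9.95, 10.10 and 9.58, and thus differed by 0.43, 0.57 and 0.06. A set annotated to Hspa1a alone stayed under the floor, at 5.17, 5.41, 5.54 and 5.08. Neither reached 2-fold on any day.

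Among the J proteins, which stimulate the ATPase of HSP70, Dnajb1 (chromosome 19, 41427453 to 41431141), the heat-inducible HSP40, read 10.42, 10.44, 10.83 and 10.93 in its brighter probe set and 9.74, 9.43, 10.19 and 10.02 in the other. Days 6 and 9 were above days 0 and 3 in both. The differences were 0.02, 0.41 and 0.51 in the brighter set and -0.31, 0.45 and 0.27 in the other, so the sets disagreed in sign on day 3 and none reached 2-fold.

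Dnajb4 (chromosome 2, 243790296 to 243819042), another cytosolic J protein of the same class, was lower on all later arrays. It read 10.64, 9.65, 9.29 and 9.40, with day 0 above all later arrays. The differences were -0.996, -1.35 and -1.24, or 1.99-fold, 2.55-fold and 2.37-fold lower. On days 3, 6 and 9 it stood among the lowest 2.18%, 3.03% and 3.17% of genes.

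Of 15 other J protein genes, 14 were above the floor, and their median differences were -0.10, -0.14 and -0.12. Dnaja4, a J protein of another class, was 1.17, 1.27 and 0.99 higher in its brightest probe set, and another gave 0.75, 1.44 and 0.85. Both reached 2-fold on day 6, and on day 3 that depended on the probe set. Dnajc2, whose product sits on ribosomes, was at -0.58, -1.28 and -0.70. Another of its probe sets gave -0.45, -0.32 and -0.04, so reaching 2-fold on day 6 depended on the probe set. The remaining 12 did not reach 2-fold on any of the days.

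Hspd1 (chromosome 9, 64073610 to 64084332) encodes HSP60, the folding chamber of the mitochondrial matrix. It read 12.60, 12.28, 12.04 and 12.16 on days 0, 3, 6 and 9. All later arrays were below day 0 and day 6 was the lowest. The differences were -0.32, -0.56 and -0.44, or 1.25-fold, 1.47-fold and 1.36-fold lower. On days 3, 6 and 9 Hspd1 stood only among the lowest 24.3%, 24.5% and 28.2% of genes. Hspe1, the HSP10 lid of the same chamber, whose start lies next to the element printed above, read 12.88, 12.49, 12.07 and 12.35 and differed by -0.40, -0.82 and -0.54, with the same order of days.

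The cytosolic chaperonin, encoded by Tcp1 and the Cct genes, folds actin and tubulin. With Hspd1 and Hspe1 it makes 10 chaperonin genes. In their brightest probe sets all 10 were below day 0 on each later day. Their medians were -0.31, -0.50 and -0.44, beside -0.05, -0.18 and -0.14 for all genes. None was 2-fold apart in these probe sets, but another probe set of Cct8 was at -1.58, -1.88 and -1.35 on days 3, 6 and 9. Another of Cct6a was at -0.07, -0.12 and -0.24. Another of Cct5 was at -0.11, 0.07 and -0.12, and so above day 0 on day 6. With arrays centred on the median difference of housekeeping genes, 9 of 10 were below day 0 on each day, with medians of -0.24, -0.17 and -0.22. Centred on the median level of the same housekeeping genes, 3, 8 and 8 of the 10 were, with medians of 0.04, -0.13 and -0.18, so the direction on day 3 depends on the centring. Hspd1 was at 0.03 on day 3 under that centring. In the other centrings, 9 of 10 were below on day 6 with the median gene, and all on days 3 and 9.

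The wider pathway was read from 8 lists with 93 other genes, of which 72 were above the floor. Those at least 2-fold higher numbered 4, 3 and 2 on days 3, 6 and 9, which is 5.56%, 4.17% and 2.78%, beside 4.31%, 5.74% and 5.57% of all genes. Those at least 2-fold lower numbered 0, 2 and 1, beside 2.15%, 8.08% and 6.25% of all genes. The medians were -0.12, -0.17 and -0.19. In the list of other HSP70 and HSP110 genes 0 of 4 reached 2-fold on any day, in the HSP90 list 0 of 11, and among HSP70 cochaperones 0 of 10, with day 9 medians of -0.16, -0.14 and -0.16. Hsp90ab1, the constitutive cytosolic HSP90, was at -0.35, -0.19 and -0.32, and another of its probe sets gave 0.70 on day 9. The 2 probe sets annotated to both Hsp90aa1 and a pseudogene of it were at -0.15 and 0.22 on day 9.

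The heat shock factor genes Hsf1 and Hsf2 did not reach 2-fold on any of the days. Hsf1 read 8.50, 8.44, 8.17 and 8.45, and Hsf2 9.48, 9.31, 9.17 and 8.95, a difference of -0.53 on day 9. In the list that holds Hsf1, Hsf2, the factor-binding gene Hsbp1 and other HSF1 target genes, 2 of 7 measured genes were at least 2-fold higher on day 9, beside 5.57% of all genes. Atf3, a stress-induced transcription factor gene, was 2.06, 2.21 and 1.68 higher, and Hmox1, which encodes the heme-degrading enzyme heme oxygenase 1, 1.10, 0.70 and 1.17. Both are also switched on by stresses other than heat. Serpinh1, the HSF1-dependent collagen chaperone gene, was at 0.18, -0.02 and -0.31.

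Among 14 measured genes of RNA binding and temperature-responsive splicing, 12 were below day 0 on day 3 and 9 on day 9, on the deposited scale. Their medians were -0.32 on day 3 and -0.15 on day 9, beside -0.05 and -0.14 for all genes. Hnrnpa1, which encodes an abundant splicing regulator, was at -0.79, -1.04 and -1.17, and its other probe sets gave -1.10 and -1.44 on day 9. Clk1 and Clk4, kinases of splicing factors that are more active in the cold, differed by 0.08 and 0.32 on day 9. In the housekeeping list, which served only to centre the arrays, the lysosomal gene Gusb was at -1.15 on day 9 and the median of 9 genes was -0.21.

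**Figure D4:**
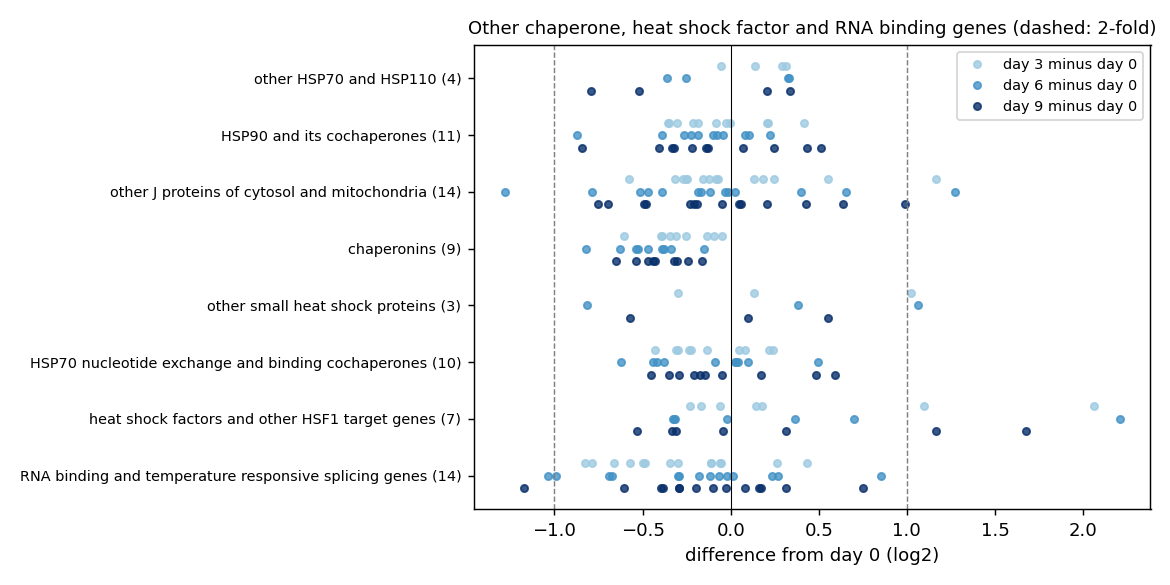
Difference from day 0 on the log2 scale (x axis) for each measured gene of 8 lists (rows, number of genes in brackets), with points for days 3, 6 and 9 from top to bottom in each row and dashed lines at 2-fold. Most of the 72 genes lie inside the lines, and the points far to the right are Atf3, at 2.06, 2.21 and 1.68. All 9 chaperonin points of each day lie left of 0 on the deposited scale, though on none of the days under every centring.

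For the 4 genes whose values spanned 1 or more on the log2 scale, the genes with the most similar course were sought by the Euclidean distance between their differences from day 0 on days 3, 6 and 9, over all 8801 genes and 4 arrays. Nearest to Cirbp, in its brightest probe set, were Rnd1, at a distance of 0.046, Dnph1, at 0.13, and Dnajb4, at 0.15. The Cirbp probe sets themselves were spread by 0.93 on day 9, more than these distances. Nearest to Dnajb4 were Zc3h12a, at 0.057, Dnph1, at 0.061, and Ogfrl1, at 0.094. Nearest to Hspa4l were Hsd17b3, at 0.049, with differences of 2.25, 1.52 and 0.69, then Pitpnc1, at 0.36, and Alox12, at 0.40. Alox12 read 4.18 on day 0, under the brightest bacterial control at 4.19, so its differences from day 0 are only bounds. Cryab had no gene as close as the nearest one of each other member. Its nearest were Tcim, at 0.35, Syt16, at 0.43, and Fads2b, at 0.55. With 3 differences per gene, a small distance is a description of these arrays.

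The arrays carried the markers of a stratified epithelium, and all 8 of its listed genes were above the floor on every day. Of the other cell types, 0 of 6 fibroblast, 0 of 6 measured muscle, 0 of 3 endothelial and 0 of 4 melanocyte or glial genes were above it, and 1 of 4 leukocyte genes, Cd68. That gene, also a lysosomal one, read 5.32, 6.54, 6.27 and 6.18, while Ptprc, the defining leukocyte gene, stayed under the brightest bacterial control throughout. For Cryab, a gene of muscle as well as of epithelia, the summed muscle markers ranged between 115 and 133 on the linear scale over the 4 arrays, and Acta1, Ckm, Myh3 and Myod1 stayed under the brightest bacterial control. The muscle genes Des and Myog were above that control on all 4 arrays, though below the floor. Des, which encodes the filament protein desmin, read 5.31, 5.49, 5.63 and 5.74 on days 0, 3, 6 and 9, higher on each later array, and Myog read 4.98, 4.90, 5.34 and 4.89. Their part in the Cryab difference was not tested. The hybridisation spike-ins, added in equal amounts, were higher on the later arrays in all 18 probe sets, by a median of 0.14, 0.39 and 0.63, and their part in the differences was not tested. With arrays centred on them, Cryab was still 2.05 higher on day 9, whereas Hspa4l was 0.046 higher and Rbm3 was at -1.17.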

How the data were processed

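RNA of 4 cultures was read on 1 Affymetrix 3' expression array each, 1 per day. The authors deposited probe set values on a log2 scale, made with RMA per the submitters' processing notes. RMA corrects background, gives the arrays a common distribution and summarises probes, so a shift of most genes one way is largely removed. Its software is not named in the labels. The log base was taken from the range, 1.55 to 14.2; column medians were 5.22 to 5.24. Per the labels, RNA integrity numbers were 9.5 to 10.

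Probe sets were named through the platform annotation (20832 with 1 symbol, 436 with several, 9831 with none). A gene took its probe set with the highest mean, probe sets with several genes were not named, and AFFX controls were left out. The floor was a log2 value of 6 on at least 1 array. A call needed a log2 difference of at least 1 between 2 arrays. Signal over background was judged against 27 bacterial controls. No test was possible with 1 array per group, and the number of arrays limits the precision. The calling rule was checked on simulated differences with known folds, with noise sized from the day 9 and day 6 arrays. That simulation has no replicate arrays, so it cannot give an error rate for the calls made here.

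Named genes were all 10 members, from each list up to 4 genes called against day 0 with the largest size on day 9, and Hsf1, Hsf2, Hspa1a, Hspa1b, Hsp90aa1, Hsp90ab1, Hspe1, Bag3 and Serpinh1. Hspb2, Hspb6, Hspb7, Hspa4, Clk1, Clk4, Cct5, Cct6a, Cct8, Hsbp1 and, in the closing part, Fkbp5 were named after their values were seen. The members and lists were chosen with earlier results of these data known, and the motifs after the promoter table was seen. Alternatives were other floors, probe set rules, centrings, a further quantile normalization and other thresholds. Centring on the housekeeping list was done in 2 ways, on the median of its differences and on its median level, and which of them to list as the planned one was decided after the effects of both were seen. The work was done in Python 3.11.15 (numpy 2.4.6, pandas 2.3.3, matplotlib 3.10.9).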

Additional observations from a re-analysis of the deposited data

How the results depend on the processing

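With 1 array per day there is no replicate to leave out. No paired analysis was possible because each group has 1 array. Differences of 0.21 to 0.46 on the log2 scale are of the median size by which probe sets of a gene part, and bright genes such as Hspb1 have little room above them. The number of the 9 genes called depended mainly on the threshold. At 1.5-fold it was 6 on day 3 and 5 on day 9 against day 0, 1 on day 6 against day 3 and 1 on day 9 against day 6. At both 3-fold and 4-fold it was 1 on day 6 and 1 on day 9 against day 0. With arrays centred on the spike-ins, 5 genes were called on day 9 against day 0, with a median of -0.71, and 1 on day 9 against day 6. That centring shifts every gene by the same amount. Shares of all genes at these thresholds and with this centring are not given here. The counts therefore have no background beside them and say nothing particular about the 9 genes.

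Over 7 alternatives of scaling and probe set, Cirbp lay between -1.22 and -0.73 on day 3 and Cryab between 2.05 and 2.94 on day 9. Centring on the median level of the housekeeping genes, an alternative added after seeing the data, moved the median of the 9 genes on day 3 to 0.22 and ended the calls of Cirbp on days 3 and 6 (-0.73 and -0.97) and of Dnajb4 on days 6 and 9 (-0.98 and -0.99). The cause was not tested. No call against day 0 was lost under the other 6. Cirbp, Rbm3, Cryab, Hspb1, Hspa4l and Dnajb4 kept their direction on all 3 days under all 7, while Hsph1, Dnajb1 and, on day 3 (0.03 with the added centring), Hspd1 did not. With arrays centred on the spike-ins, however, Hspb1 and Hspa4l were only 0.097 and 0.046 above day 0 on day 9. Calls were gained by Dnajb4 on day 3 (-1.14 with spike-ins and -1.01 with quantile normalization), Hspb1 on day 3 (1.11 with the added centring) and day 6 (1.24 with it, 1.03 with the median gene and 1.20 with the median difference of housekeeping genes), Rbm3 on days 6 and 9 (-1.06 and -1.17 with spike-ins) and Hspd1 on day 9 (-1.07 with spike-ins).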

Other observations

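Among pathway genes below the floor, Fkbp5, which encodes a glucocorticoid-induced HSP90 cochaperone, read 5.59, 4.87, 3.56 and 4.22 on days 0, 3, 6 and 9. On days 6 and 9 this was under the brightest bacterial control, so Fkbp5 was at least 2.11-fold and 2.05-fold lower there than on day 0. These bounds are for its brightest probe set. Another of its probe sets differed by -0.44 on day 6 and 0.16 on day 9. Fkbp5 was singled out after its values were seen.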
